A study of Homo sapiens with 4 samples.

Results

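The 10 genes described here carry a Wnt signal from the cell surface to the nucleus: LRP5, LRP6, DVL1, DVL2, DVL3, AXIN1, AXIN2, APC, CTNNB1 and TCF7L2. They were chosen by name and by their peaks in 2 lists of N6-methyladenosine (m6A) peaks, and it was known when they were chosen that DVL3 and TCF7L2 had peaks in one list only. All 10 had a peak, out of 11250 genes with a peak in either list. They held 33 of the 23623 peaks of the Ctrl list and 30 of the 23134 peaks of the Cas list. Since the peaks chose the genes, the numbers below describe these genes and test nothing.

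The study examined m6A in HEK293T, an established human embryonic kidney cell line that is easy to transfect, after methylation was directed to sites named YTHDF2-1551, SPEN-3525 and GAPDH-782. Per the labels, all 4 libraries came from cells given dCas13b-M14, an RNA-guided Cas13b protein without cutting activity joined to a part named M14, together with a guide RNA, and collected 24 h later. The labels give the Ctrl and Cas groups the same treatment text and do not say how they differed, nor what M14 is. Polyadenylated RNA was fragmented and pulled down with an antibody against m6A (MeRIP-seq), 1 library per group, beside 1 input library per group that was not analysed here.

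Each list names a RefSeq transcript and where on it a peak begins and ends, counted from base 1. It gives no read count, height, fold or p-value, so depth is unknown. A gene without a listed peak may be unmethylated, or its RNA may have been too scarce, and in bulk RNA fewer cells of a type and less RNA per cell cannot be told apart. With 1 library per group no difference below has a replicate check. Of 6 markers of HEK293T cells, 6 had a peak, with PAX2 in the Ctrl list only. Of 9 markers of blood, liver, endothelial and fibroblast cells, COL1A1 alone had one.

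Wnt proteins bind a Frizzled receptor together with the co-receptor LRP5 or LRP6. Dishevelled proteins (DVL1, DVL2 and DVL3) then draw AXIN to the membrane, which stops the complex of AXIN, APC and the kinases GSK3 and CK1 from marking β-catenin for destruction. β-catenin, encoded by CTNNB1, accumulates and activates genes with TCF factors such as TCF7L2. In mRNA, m6A is known to lie mostly in long exons and around stop codons, in a sequence context called DRACH: A, G or T, then A or G, then the methylated A, then C, then A, C or T. The mark is known to affect how fast an mRNA decays and how well it is translated.

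Stretches of coding sequence from 4 of the genes are printed to show what the peaks cover. For AXIN1, AXIN2 and CTNNB1 the stretch lay inside peaks of both lists, and for DVL3 inside a Ctrl peak that has no counterpart in Cas. The bases come from GENCODE transcripts (GRCh38), because no RefSeq transcript sequence was used here. Their starts differ from those of the RefSeq genes by 1 nt (AXIN2) to 71 nt (CTNNB1), and each stretch keeps only the bases that are inside the peak whether or not this difference is taken off. Every DRACH match on the transcript strand is in capitals.
AXIN1 (chr16:346602-346897, minus strand, exon 2 of 11): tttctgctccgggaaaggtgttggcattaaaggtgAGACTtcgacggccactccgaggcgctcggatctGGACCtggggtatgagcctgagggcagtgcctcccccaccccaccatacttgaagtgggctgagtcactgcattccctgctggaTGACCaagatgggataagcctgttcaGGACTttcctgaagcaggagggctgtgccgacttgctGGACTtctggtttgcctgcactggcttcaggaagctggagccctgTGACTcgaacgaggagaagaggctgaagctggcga
AXIN2 (chr17:65558283-65558382, minus strand, exon 2 of 11): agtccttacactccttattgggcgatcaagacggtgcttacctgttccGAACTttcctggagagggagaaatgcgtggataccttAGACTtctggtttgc
CTNNB1 (chr3:41224662-41224972, plus strand, exons 3 and 4 of 16, joined without the intron): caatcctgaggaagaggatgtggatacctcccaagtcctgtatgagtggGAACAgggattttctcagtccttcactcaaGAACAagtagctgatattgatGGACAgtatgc
DVL3 (chr3:184170708-184170755, plus strand, exon 15 of 15, ending with the stop codon): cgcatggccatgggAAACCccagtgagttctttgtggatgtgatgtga

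The AXIN1 stretch of 296 bases held 6 DRACH matches, 2 of them GGACT, a form in which m6A is often found. The AXIN2 stretch of 100 bases held 2, CTNNB1 held 3 in 111 bases and DVL3 1 in 48 bases. Of these 4 stretches, that of AXIN1, the longest, alone held GGACT. The stretch of DVL1 taken in the same way, 127 bases of exon 13 inside peaks of both lists, is not printed and held 0 DRACH matches, where 89.9% of windows of its length held one. Among successive windows of the same length on all 5084 transcripts placed in the same way, DRACH was in 99.1% at the AXIN1 length, 83.9% at the AXIN2 length, 86.8% at the CTNNB1 length and 58.1% at the DVL3 length. A match to DRACH is therefore common at these lengths and marks no site by itself. GGACT was in 24.2% of windows of the AXIN1 length, 8.79% at the AXIN2 length, 9.73% at the CTNNB1 length and 4.14% at the DVL3 length. The wider Ctrl peak of AXIN2, of which its stretch is a part, held 2 GGACT.

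The stretches of AXIN1 and AXIN2 come from the same exon of 2 related genes and could be aligned over 101 columns, of which 69 were identical (68.3%) and 2 were gaps. Both DRACH matches of AXIN2 fell in the same columns as matches of AXIN1. Those of AXIN1 are the 2 GGACT sites, with 32 bases between them. Both libraries thus had a peak over corresponding coding sequence of the pair of scaffold genes.

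**Figure D1:**
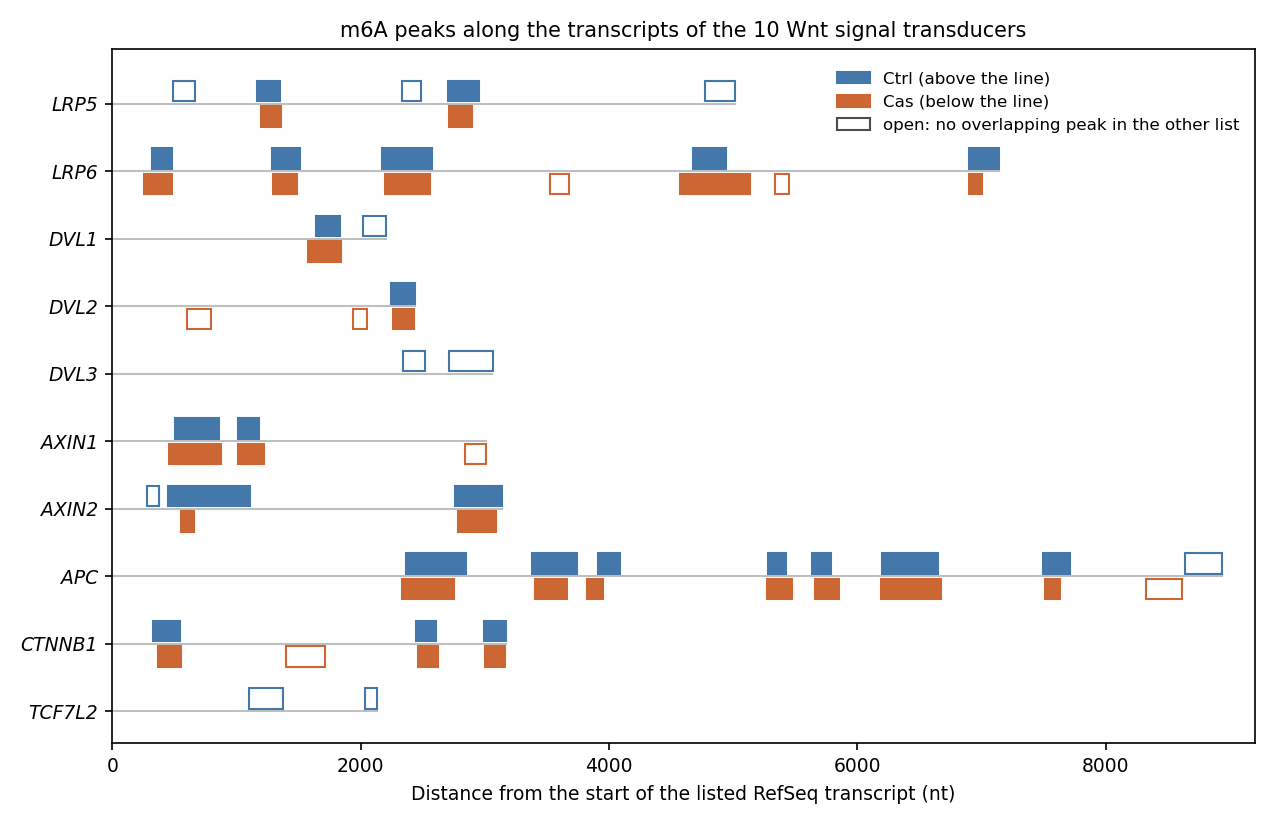
Peaks of the 10 genes along their listed RefSeq transcripts, as distance from the transcript start in nt. Ctrl peaks lie above and Cas peaks below each line, which ends at the last listed peak. Open boxes have no overlapping peak in the other list, as all 4 boxes of DVL3 and TCF7L2.

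Across the 10 genes the lists were of similar size, and 8 genes had peaks in both. Among all genes with a peak, 10.0% were in the Ctrl list only and 4.79% in the Cas list only, and among the 10 described here the numbers were 2 and 0. As the 2 genes were known when the set was chosen, nothing is read from this count. Of the 8 genes in both lists, 4 had more peaks in Cas (LRP6, DVL2, AXIN1 and CTNNB1), 3 had more in Ctrl (LRP5, DVL1 and AXIN2), and APC had the same number. Among all 9584 genes in both lists these shares were 24.2%, 20.0% and 55.8%. Those genes were not matched to the 8 by number of peaks. The split of the 8 also changes without grid peaks, as given below, so nothing is read from it. The median number of peaks per gene was 2.50 in each list for the 10 genes, and 2.00 in each over all genes with a peak in that list. In Cas the 10 genes include DVL3 and TCF7L2 with 0 peaks, so the Cas medians are of unlike sets. Peaks of the 10 genes covered 8270 bases in Ctrl and 6895 in Cas, beside 5273760 and 5064954 over the whole lists. Of the Ctrl bases, 531 were of DVL3 and 370 of TCF7L2, which were known to be in Ctrl only.

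**Figure D2:**
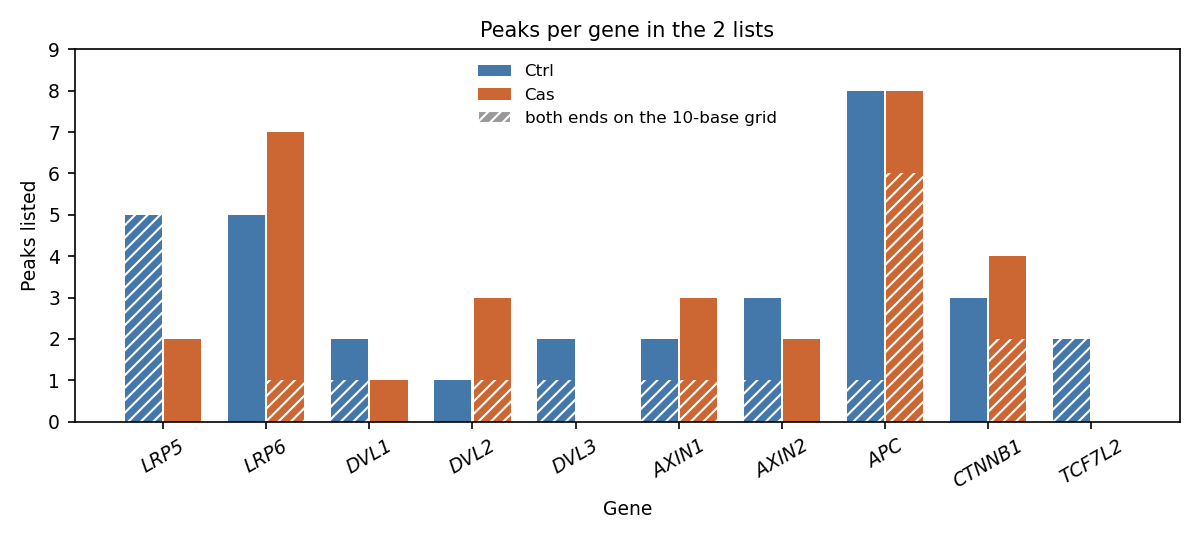
Number of peaks listed for each gene in Ctrl (blue) and Cas (orange). Hatching marks peaks whose ends both lie on a 10-base grid, which are all 5 Ctrl peaks of LRP5, both of TCF7L2 and 6 of the 8 Cas peaks of APC.

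Some peaks of both lists start 1 base after a multiple of 10 and end on one. Such grid peaks were 27.2% of all Ctrl and 28.9% of all Cas peaks, and 12 of 33 Ctrl peaks (36.4%, Wilson 95% interval 22.2 to 53.4) and 11 of 30 Cas peaks (36.7%, 21.9 to 54.5) of the 10 genes. How they arose is not stated in the labels or the files. They are named with each gene below. Peak numbers without them are given where the order of the lists changes, and why they differ between the lists was not tested.

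With all peaks counted the co-receptors differed in opposite directions, whereas without grid peaks both had more peaks in Cas. LRP5, on chromosome 11 (68298412 to 68449275, GRCh38.p14), had 5 peaks over 1000 bases in Ctrl and 2 over 338 bases in Cas. The Ctrl peaks spanned 491 to 660, 1161 to 1350, 2331 to 2480, 2701 to 2950 and 4771 to 5010 of NM_001291902. The Cas peaks spanned 1199 to 1353 and 2711 to 2893, each overlapping a Ctrl peak. The 3 Ctrl peaks with no Cas counterpart lay 230 to 1877 nt from the nearest Cas peak. All 5 Ctrl peaks of LRP5 were grid peaks and neither Cas peak was, so that leaving grid peaks out reverses the order, to 0 in Ctrl and 2 in Cas. At least 3 fewer peaks in Cas were listed for 103 of the 9584 genes in both lists (1.07%), with grid peaks counted. A gene with few Ctrl peaks cannot have 3 fewer in Cas, and why the share is low was not tested. Genes with 5 or more Ctrl peaks, as LRP5 had, were 6.85% of the genes of the Ctrl list.

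LRP6, the close relative of LRP5, lies on chromosome 12 (12116025 to 12267044) and had 5 peaks over 1298 bases in Ctrl and 7 over 1710 bases in Cas. All 5 Ctrl peaks of NM_002336, at 317 to 476, 1283 to 1511, 2167 to 2573, 4678 to 4937 and 6901 to 7142, overlapped a Cas peak. Those Cas peaks spanned 255 to 476, 1290 to 1489, 2194 to 2553, 4571 to 5131 and 6901 to 7000. The other two Cas peaks, at 3521 to 3674 and 5338 to 5450, lay 947 and 400 nt from the nearest Ctrl peak and were 154 and 113 bp wide. LRP6 was thus covered at the same 5 places in both libraries, with the peak at 4678 to 4937 wider in Cas (561 against 260 bp) and the last one narrower (100 against 242 bp). Only 1 of its 12 peaks was a grid peak, in Cas. At least 2 more peaks in Cas were listed for 513 genes in both lists (5.35%), with grid peaks counted. Genes with 7 or more peaks were 2.11% of the Cas list.

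The 3 Dishevelled genes each had another pattern. DVL1, on chromosome 1 (1335278 to 1349418), had 2 peaks in Ctrl, at 1641 to 1835 and 2021 to 2200 of NM_001330311, and 1 in Cas, at 1571 to 1842. The first Ctrl peak lay within the Cas peak. The second, a grid peak, lay 178 nt from it, and without it DVL1 had 1 peak in each list. By the GENCODE model all 3 lay in coding sequence, the shared one in exon 13 of 15 and the Ctrl peak without a counterpart in the last exon.

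DVL2, on chromosome 17 (7225342 to 7234517), had 1 peak in Ctrl and 3 in Cas. The Ctrl peak at 2243 to 2434 of NM_004422 and the Cas peak at 2259 to 2431 shared 173 bases, 90.1% of their joint span. Their centres lay 121 to 156 nt before the end of the stop codon. The additional Cas peaks, at 601 to 790 and 1941 to 2049, lay in coding sequence, 1452 and 193 nt from the Ctrl peak. The first of them was a grid peak, and the second was 109 bp wide, where the narrowest peak in either list is 100 bp.

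DVL3, on chromosome 3 (184155377 to 184173614), had 2 Ctrl peaks and no Cas peak. The Ctrl peak at 2338 to 2518 of NM_004423 was centred 18 to 43 nt after the end of the stop codon, and that at 2711 to 3060, a grid peak, 475 to 500 nt after it. Both lay in the last exon of 3293 nt. At 181 and 350 bp neither was close to the narrowest width listed. DVL2 and DVL3 therefore each had a Ctrl peak in the last exon within 200 nt of the stop codon, and in Cas only that of DVL2 was listed.

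The scaffold AXIN1, on chromosome 16 (287440 to 352723), had 2 peaks in Ctrl and 3 in Cas. Its shared pairs were 501 to 860 with 456 to 870 and 1015 to 1180 with 1015 to 1220 of NM_003502, sharing 86.7% and 80.6% of their joint spans. All 4 lay in the coding part of exon 2, which is 959 nt long. The Ctrl peak at 501 to 860 was a grid peak. In the first pair the further position that the files give inside each peak, whose meaning is not stated, was 555 in both lists. The additional Cas peak, at 2841 to 3010, was a grid peak in the last exon, centred 36 to 100 nt before the end of the stop codon and 1660 nt from the nearest Ctrl peak.

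AXIN2, a relative of AXIN1 that Wnt signalling is known to induce, lies on chromosome 17 (65528563 to 65561648) and had 3 peaks over 1144 bases in Ctrl and 2 over 403 bases in Cas. The Ctrl peak at 444 to 1107 of NM_004655 was the widest of the 10 genes, at 664 bp, and the Cas peak inside it, at 553 to 653, was 101 bp wide. They shared 15.2% of their joint span. The Ctrl peak at 2761 to 3140 and the Cas peak at 2784 to 3085 shared 79.5%, with centres 87 to 104 nt after the end of the stop codon. A further Ctrl peak at 278 to 377, with the start codon of the model at 315, was 100 bp wide and lay 175 nt from the nearest Cas peak. In Cas AXIN2 thus had peaks at 2 of its 3 Ctrl places, both narrower than in Ctrl. The Ctrl peak at 2761 to 3140 was a grid peak, and without it, or with peaks within 100 bp merged, AXIN2 had 2 peaks in each list.

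APC, the large scaffold of the destruction complex, lies on chromosome 5 (112707498 to 112846239) and had most peaks of the 10 genes, 8 in each list. Their summed width was 2276 bases in the Ctrl list and 2096 in the Cas list. Genes with 8 or more peaks were 0.887% of the genes of the Ctrl list and 1.23% of those of the Cas list. In 7 of 8 peaks the lists overlapped, from the pair at 2363 to 2846 and 2331 to 2750 of NM_001354895 to the pair at 7491 to 7710 and 7511 to 7630. The share of the joint span ran from 15.3% for 3910 to 4088 with 3821 to 3950 up to 92.7% for 6201 to 6645 with 6191 to 6670. The last peaks, at 8639 to 8934 in Ctrl and 8327 to 8616 in Cas, did not overlap and were 22 nt apart. Of the Cas peaks 6 were grid peaks, against 1 in Ctrl, so that without grid peaks APC had 7 in Ctrl and 2 in Cas.

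CTNNB1, on chromosome 3 (41199505 to 41240443), had 3 peaks in Ctrl and 4 in Cas. All 3 Ctrl peaks of NM_001904 had a counterpart: 328 to 545 with 364 to 548, 2441 to 2607 with 2461 to 2620, and 2996 to 3168 with 3000 to 3157. These pairs shared 82.4%, 81.7% and 91.3% of their joint spans. By the model the first pair lay in coding sequence near the start, the second within 200 nt of the stop codon and the third in the 3' UTR, where the further position was 3058 in both lists. The Cas peak at 2461 to 2620 was a grid peak. So was the additional Cas peak, at 1401 to 1710, which was 310 bp wide and lay in the coding sequence of exon 9, 730 nt from the nearest Ctrl peak. Leaving out both grid peaks reverses the order at CTNNB1, to 3 peaks against 2 in Cas.

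TCF7L2, the DNA-binding partner of β-catenin, lies on chromosome 10 (112950247 to 113167678) and had 2 Ctrl peaks, at 1101 to 1370 and 2031 to 2130 of NM_001198525, and no Cas peak. They were 270 and 100 bp wide, and both were grid peaks. No TCF7L2 peak remained in either list without grid peaks, whereas DVL3 kept its Ctrl peak at the stop codon.

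**Figure D3:**
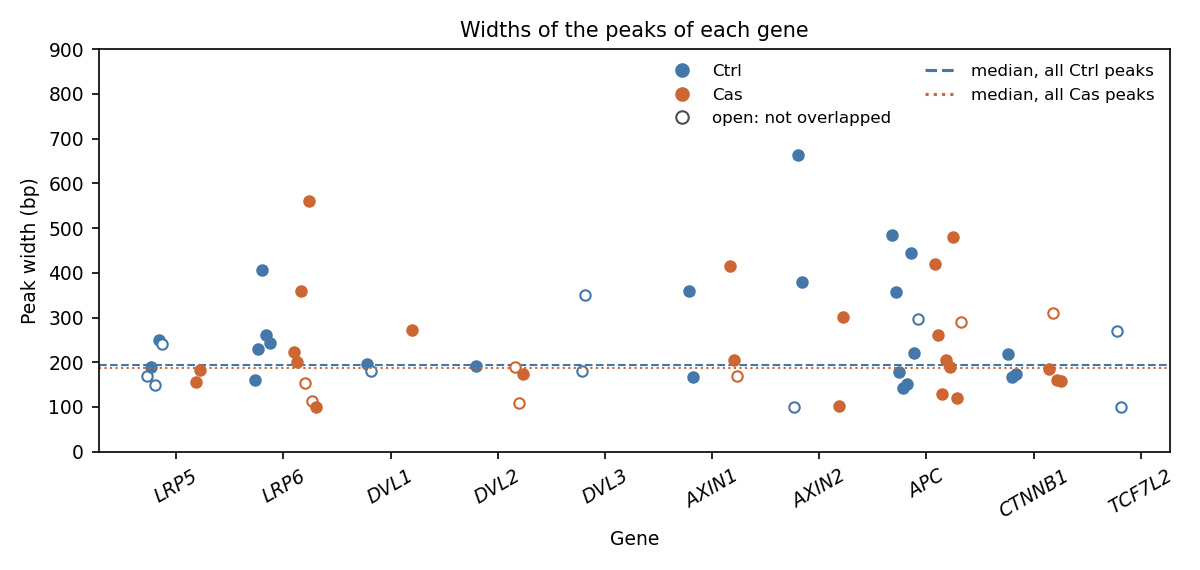
Width in bp of every peak of the 10 genes, Ctrl in blue and Cas in orange, filled where a peak of the other list overlaps it. The dashed and dotted lines are the medians of all Ctrl (194 bp) and Cas (188 bp) peaks. AXIN2 has the widest peak, at 664 bp in Ctrl.

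How often peaks of the 10 genes overlapped between the lists, beside peaks in general, depended on which peaks were kept. With all peaks, in Ctrl 23 of 33 were overlapped by a Cas peak (69.7%, Wilson 95% interval 52.7 to 82.6), and in Cas 23 of 30 by a Ctrl peak (76.7%, 59.1 to 88.2), beside 75.8% and 78.0% over the whole lists. Peaks with no counterpart were 24.2% of all Ctrl and 22.0% of all Cas peaks, and here they numbered 10 and 7. The 10 include all Ctrl peaks of DVL3 and TCF7L2. These could not be overlapped, since both genes were known to have no Cas peak when the set was chosen. They lower the Ctrl share at every setting that keeps them, so nothing is read from the Ctrl shares beside those of the list. With grid peaks left out of both lists the shares were 52.4% in Ctrl and 57.9% in Cas, beside 70.3% and 73.7% over the whole lists. With the wider 50% of each list they were 50% and 56.2%, beside 65.3% and 66.6%. The gaps to the lists were wider at both settings than with all peaks, but no interval was computed for them and nothing is read from this. Without grid peaks APC alone kept 7 Ctrl peaks beside 2 in Cas, so many of its pairs were lost. The intervals given with all peaks cover counting of peaks only, and peaks of 1 gene share its RNA. Counting overlap with any peak of the other list, 5 of 12 grid peaks and 18 of 21 other peaks were overlapped in Ctrl, beside 55.3% and 83.4% of all such peaks. In Cas these were 8 of 11 and 15 of 19, beside 62.2% and 84.4%. Among the Ctrl peaks not overlapped, 2 grid peaks were of TCF7L2, and 1 grid peak and 1 other peak were of DVL3. As both genes were known to be in Ctrl only, nothing is read from the Ctrl shares by kind of peak. The median width of peaks without a counterpart was 180 bp (Ctrl) and 170 bp (Cas), and that of overlapped ones 220 and 200 bp. The same order held over the whole lists, with medians of 144 and 149 bp against 211 and 201 bp.

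**Figure D4:**
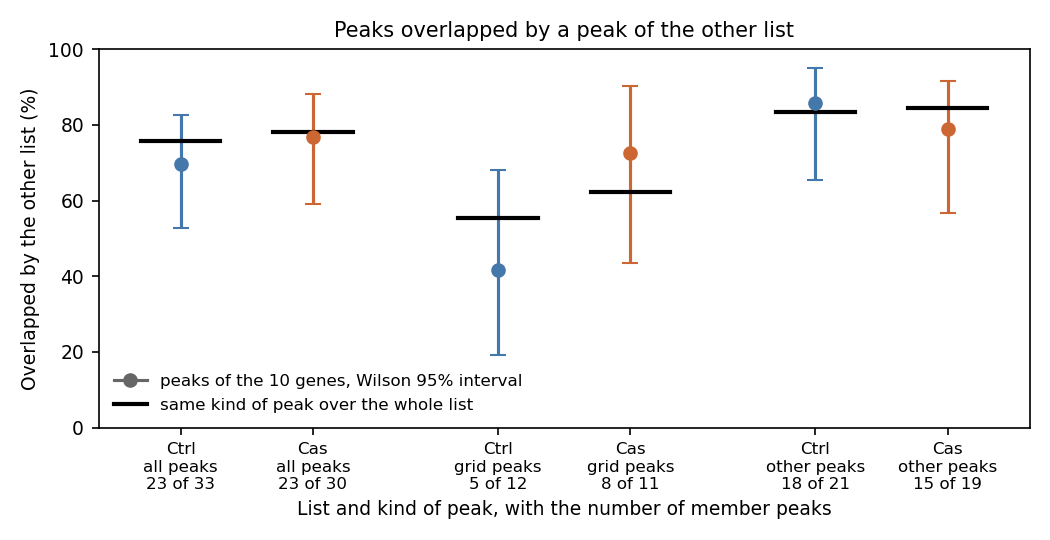
Percent of the peaks of the 10 genes that a peak of the other list overlaps, for all, grid and other peaks of each list, with Wilson 95% intervals. Black lines give the percent for the same kind of peak over the whole list, and each lies within the interval beside it. The Ctrl shares count the peaks of DVL3 and TCF7L2, which were known to have no Cas peak when the genes were chosen.

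Of the 23 overlapping pairs, 4 (17.4%) had the same further position in both lists: 2 of LRP6, at 349 and 1341, and those of AXIN1 and CTNNB1 given above. Over all 18188 overlapping pairs the share was 12.5%. In 15 of the 23 pairs the positions lay within 50 nt of each other (65.2%), beside 71.5% over all pairs. The pair of APC at 6201 to 6645 had them farthest apart, at 320 nt.

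Transcript regions could be read for 6 of the 10 genes (the Dishevelled and AXIN genes and CTNNB1), whose GENCODE model starts within 100 nt of the RefSeq gene. Among their 13 Ctrl peaks 7 lay in coding sequence away from the stop codon, 4 within 200 nt of it and 2 in the 3' UTR. Among their 13 Cas peaks these numbers were 8, 4 and 1. Over all transcripts placed in this way, the coding share was 48.5% of 10571 Ctrl and 51.0% of 10417 Cas peaks, the stop codon share 23.3% and 22.3%, and the 3' UTR share 22.6% and 21.6%. Exons of 400 nt or more held the centres of 10 of 13 Ctrl peaks and 7 of 12 Cas peaks, beside 71.8% and 68.9% over all placed peaks. DRACH was in 11 of 13 Ctrl and 12 of 13 Cas peaks (94.7% and 94.3% over all), and GGACT in 2 and 4 (26.0% and 24.2%). With 13 peaks per list these shares are too coarse to set the 6 genes apart. For LRP5, LRP6, APC and TCF7L2 the models start 232 to 30390 nt from the RefSeq gene, counted along the genome, so no region is given for their peaks.

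The rest of the pathway was described with 107 further genes in 6 lists by role. Of these, 72 had a peak, 64 in both lists, 7 in Ctrl only (9.72% of the 72) and 1 in Cas only (1.39%), beside 10.0% and 4.79% over all genes. They held 188 peaks in Ctrl and 172 in Cas. Of the 64 in both lists, 9 had more peaks in Cas, 13 more in Ctrl and 42 the same number, beside 24.2%, 20.0% and 55.8% of all genes in both lists.

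Closest to the members in function, the destruction complex partners had peaks at 19 of 20 genes, all in both lists, 4 with more in Cas and 3 with more in Ctrl. Ubiquitin protease USP34, which stabilises AXIN, had 7 peaks in Ctrl and 9 in Cas, and the AXIN-degrading tankyrase TNKS had 6 and 7. The kinases GSK3A and GSK3B had 2 and 3 in each list. Dishevelled partners had peaks at 11 of 12 genes, and 6 of the 10 in both lists had more in Ctrl and 1 more in Cas. Over all genes in both lists these shares were 20.0% and 24.2%. The splits by role were not counted without grid peaks, and with 10 genes nothing is read from this one. VANGL2, a planar polarity protein that binds Dishevelled, had 5 and 3, CCDC88C 4 and 4, and CXXC5, an inhibitor of Dishevelled, 1 Cas peak of 121 bp and no Ctrl peak.

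Receptors had peaks at 12 of 14 genes, and of the 10 in both lists 1 had more in Cas and 3 more in Ctrl. The Frizzled receptor FZD3 had 4 in Ctrl and 3 in Cas, and the co-receptor PTK7 4 and 4. FZD5 and FZD9 had 1 Ctrl peak each, of 100 and 101 bp, and none in Cas. Secreted and membrane regulators had peaks at 8 of 22 genes, and of the 6 in both lists 1 had more in Cas and 1 more in Ctrl. RNF43 and ZNRF3, ubiquitin ligases that remove Frizzled from the membrane, had 6 and 4 in Ctrl and 3 and 4 in Cas, while the LRP-binding inhibitor DKK1 and its receptor KREMEN2 had 1 Ctrl peak each, of 111 and 106 bp, and none in Cas. These 4 genes in Ctrl only therefore rested on single peaks close to the narrowest width listed.

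Ligands and secretion genes had peaks at 7 of 21, and the 5 in both lists had equal numbers, among them WNT5A with 3 in each list and WLS, the carrier of secreted Wnt, with 2 in each. WNT5B and WNT10B had 2 Ctrl peaks each, over 351 and 544 bases, and none in Cas. Nuclear effectors had peaks at 15 of 18, and of the 14 in both lists 2 had more in Cas and 0 more in Ctrl. The coactivator CREBBP had 7 in each list and the chromatin remodeller CHD8 5 in each, with 1121 bases covered in both. TCF7, a relative of TCF7L2, had 1 Ctrl peak of 437 bp and no Cas peak, whereas LEF1, another relative, had 1 in each and TCF7L1 none. Among the 4 TCF and LEF genes TCF7L2 and TCF7 were listed in Ctrl only, beside 10.0% of all genes with a peak. That of TCF7L2 was known when it was chosen and rests on grid peaks, so nothing is read from this count. LEF1, TCF7L1, GSK3A and GSK3B were added to the named genes after their values were seen.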

How the data were processed

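The peak lists of the 2 immunoprecipitation libraries were used as the authors deposited them. Their values are positions along RefSeq transcripts, with no score, count or other unit of height. Per the submitters' processing notes, FastQC, fastp, HISAT2, SAMtools, edgeR and HOMER were used with GRCh38; versions, roles, the peak caller and its use of the input are not stated there or in the labels.

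Transcripts were named with RefSeq's gene annotation (assembly GRCh38.p14); 99 of 11254 had no symbol there and were kept under their accession. Peaks sharing at least 1 bp on a transcript were counted as overlapping (bedtools 2.31.1). Regions and bases came from the GENCODE release 29 transcript cross-referenced to each RefSeq transcript, where its start lay within 100 nt of the RefSeq gene's. Positions were read both with and without that start difference and kept where both readings gave 1 region; the limit was set after the files were seen. The RefSeq version used by the authors, and the start of each isoform, are not given, so region and sequence are approximate to that difference. Motifs were searched on the transcript strand only, in the part of a peak common to both readings. Sequences of AXIN1 and AXIN2 were aligned locally.

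The genes, lists and alternatives were chosen with earlier results of these data known. All 10 members are named, with the genes of each role list that had peaks in 1 list only and the 2 with most peaks, ties broken by bases covered. No test between groups was made, since each group had 1 library. The overlap script was tested on simulated peaks.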

Additional observations from a re-analysis of the deposited data

How the results depend on the processing

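No paired analysis was possible because the groups hold 1 library each. Keeping the wider 50% of each list, which holds fewer peaks by construction, left 18 Ctrl and 16 Cas peaks of the 10 genes, with 50% and 56.2% overlapped (65.3% and 66.6% over all peaks). It left 3 genes (LRP5, DVL3 and TCF7L2) in Ctrl only and 1 (DVL2) in Cas only. Of the other Wnt genes it left 42 in both lists, 8 in the Ctrl list alone and 9 in the Cas list alone. Without grid peaks 21 Ctrl and 19 Cas peaks remained, over 5410 and 4365 bases, with 52.4% and 57.9% overlapped (70.3% and 73.7% over all peaks). The genes in Ctrl only were then 1 (DVL3) and those in Cas only 1 (LRP5). The other Wnt genes numbered 60 in both lists, 8 in the Ctrl list alone and 3 in the Cas list alone. Shares of all genes were not counted at either setting, so nothing is read from these numbers of genes. The difference in peak number, Cas minus Ctrl, reversed without grid peaks at LRP5 (to 2) and CTNNB1 (to -1); the cause was not tested. It came to 0 at DVL1, AXIN2 and TCF7L2 without grid peaks, at LRP6, DVL1 and CTNNB1 in the wider 50%, and at AXIN2 with peaks merged. At APC, equal with all peaks, it was -5 without grid peaks and 1 in the wider 50%. Merging peaks, a reciprocal overlap of 50% and centres within 50 bp kept every value for the 10 genes as a whole within its interval or within 1.5 times. With a stop codon window of 100 nt, 1 Ctrl and 3 Cas peaks lay in it, where with 200 nt 4 and 4 did. With every transcript model, 22 Ctrl and 21 Cas peaks were coding, 7 and 6 near the stop codon, and 4 and 3 in the 3' UTR. These counts take in LRP5, LRP6, APC and TCF7L2, whose models start too far from the RefSeq gene for a region to be given above. Positions were read there without the start difference, so no region of these 4 genes is read from them. With starts within 10 nt, an alternative added after seeing the data, AXIN2 alone was placed, with 2 Ctrl and 1 Cas peaks coding, 1 and 1 near the stop codon and 0 and 0 in the 3' UTR. GGACT within 50 nt of the centre was in 1 Ctrl and 2 Cas peaks. DRACH in place of GGACT, searched over the whole peak, was in 11 and 12. Depth is unknown, so a missing peak sets no limit on methylation.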
